A study of Mus musculus with 6 samples.

Results

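The R-spondin and Lgr receptor arm of Wnt signalling was followed through 10 genes in mouse dorsal skin: the ligand genes Rspo1 and Rspo3, the receptor genes Lgr4, Lgr5 and Lgr6, the ubiquitin ligase gene Znrf3, the feedback targets Axin2 and Nkd1, and the transcription factor genes Lef1 and Tcf7. They were taken by gene symbol from a count table of 55487 genes, each symbol matched exactly 1 row, and all 10 had enough counts to be tested. The table held 6 RNA-seq libraries of whole skin from day 2. There were 3 libraries of skin treated with DPCP (diphenylcyclopropenone, which sets off an allergic contact reaction) and 3 of control skin. The labels name no strain, age, sex, dose or control vehicle, and do not say whether libraries of a group came from separate animals, so p-values reflect variation among these libraries that may be technical. The study, by its title, is about macrophages in the hair regrowth that follows contact hypersensitivity, and its RNA-seq set DPCP skin against control skin.

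R-spondins are secreted proteins that bind Lgr receptors together with the membrane ubiquitin ligases Znrf3 and Rnf43. Those ligases remove Frizzled receptors from the cell surface, so R-spondins raise the response of a cell to Wnt ligands. In the nucleus beta-catenin then joins Lef1 or Tcf7 at target genes, among them Axin2 and Nkd1, whose products dampen the pathway again. In mouse skin Lgr5 and Lgr6 are known as marker genes of hair follicle stem cells, and Wnt signalling is known for driving the follicle into its growth phase.

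Of the 10 genes, 6 were lower in DPCP skin (Rspo3, Lgr6, Axin2, Nkd1, Znrf3 and Lgr4), 1 was higher (Tcf7), and Rspo1, Lgr5 and Lef1 did not pass the test (edgeR quasi-likelihood test, Benjamini-Hochberg adjusted p under 0.05). Over all 18259 genes tested, 23.3% were called lower and 22.8% higher in DPCP skin, or 46.1% in either direction. The DPCP and control libraries did not overlap for 7 genes that lay lower in DPCP skin and for 1 that lay higher, against 29.4% and 28.6% of all tested genes. The median log2 fold change (DPCP over control) was −0.54 for the 10 genes and −0.01 for all genes tested. These counts describe the list, whose members were chosen with earlier results of these data known. The summed level of the 10 genes was 118 to 146 CPM in the DPCP libraries, against 215 to 244 CPM in the control libraries (CPM are counts scaled to a common library size, here with TMM factors, which correct for differences in composition).

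Library totals were 31609336 to 38846787 counts in DPCP and 28346992 to 33468828 counts in control libraries. On the first principal component of log2 CPM, which held 81.2% of the variance, DPCP replicates 1, 2 and 3 had scores of −39.8, −61.2 and −58.4, and the control libraries scores of 52.8 to 53.4. Of the 6 genes that fell, 5 had their DPCP value nearest to control in DPCP replicate 1. Markers of skin were abundant. Krt14, a keratin of the basal epidermis, averaged 17412 ± 1232 CPM in DPCP and 4772 ± 395 CPM in control skin (SD, n = 3 each). Of 8 markers of the growing hair shaft, only Msx2 and Hoxc13 had enough counts to be tested and neither was called, while Krt31, Krt33a, Krt35 and Krt25 were at 0 in at least 1 library, and the list summed to 6.86 to 14.6 CPM in DPCP and 10.8 to 12 CPM in control libraries.

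**Figure D1:**
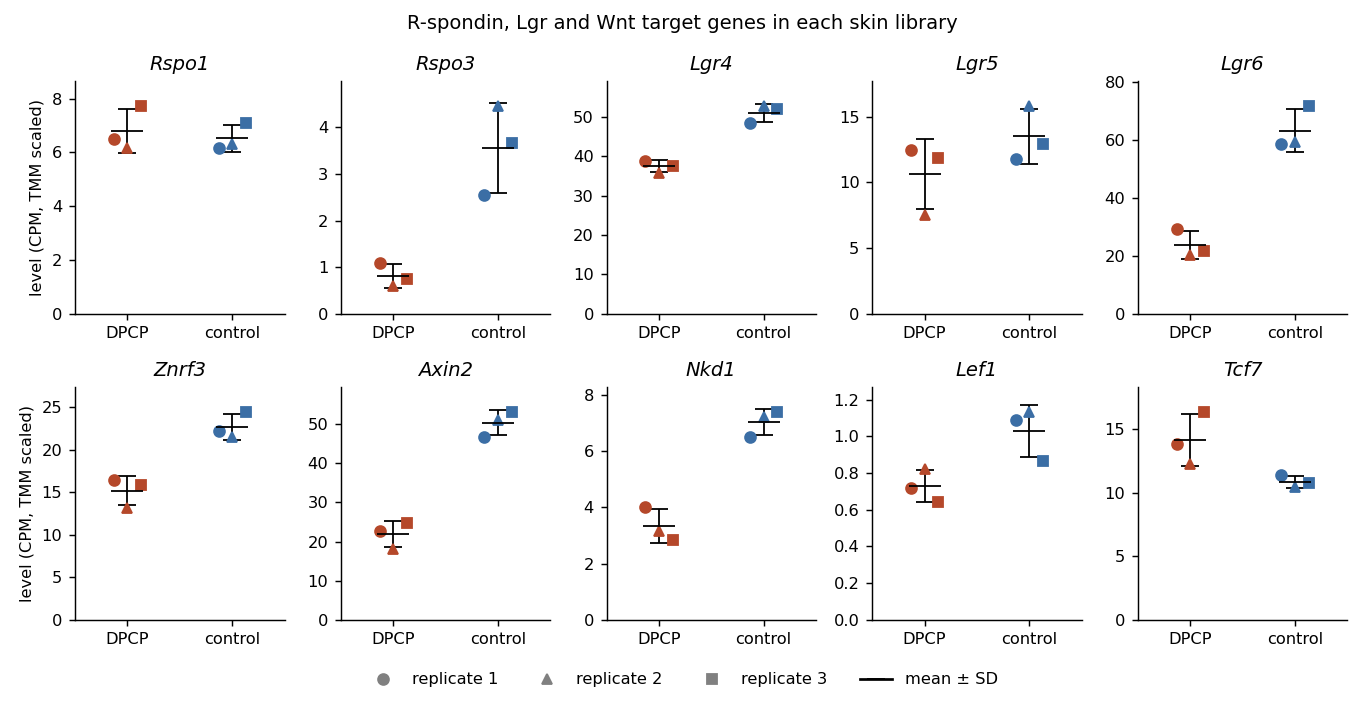
Level of each of the 10 genes (CPM after TMM scaling, linear axes from 0) in the 3 DPCP and 3 control libraries, with symbols for the replicate and bars for mean ± SD. Lgr6 lies at 20.3 to 29.1 CPM in DPCP and 58.4 to 71.6 CPM in control libraries, whereas Rspo1 and Lgr5 overlap between the groups.

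The R-spondin ligand genes differed in what they showed. Rspo3 (ENSMUSG00000019880, GRCm38 chromosome 10, 29452416 to 29535867, minus strand, 5 merged exons) was at 1.10, 0.601 and 0.740 CPM in DPCP replicates 1 to 3, against 2.55, 4.46 and 3.67 CPM in control replicates 1 to 3. All DPCP libraries lay below all control libraries, with 38, 22 and 23 counts in DPCP and 75, 134 and 123 counts in control. The log2 fold change was −2.13 ± 0.31 (SE, edgeR adjusted p = 0.000832), the largest decrease of the 10 genes, which left 22.9% of the control level. An antisense gene, Gm48159, shares 404 of the 3090 exon bases of Rspo3 and had 0 counts in every library. Reads falling in the shared stretch were not assigned to either gene, so the level of Rspo3 is uncertain to that extent.

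Rspo1 (ENSMUSG00000028871, chromosome 4, 124986430 to 125009099, plus strand, 6 merged exons) was at 6.49, 6.15 and 7.72 CPM in DPCP skin, against 6.16, 6.33 and 7.10 CPM in control skin. The groups overlapped almost fully, and the log2 fold change was 0.05 with a 95% interval of −0.29 to 0.40 (edgeR adjusted p = 0.789). Its sign turned negative with library totals alone (−0.018) and without DPCP replicate 3 (−0.041). Per length of exon, Rspo3 stood to Rspo1 at ratios of 0.106, 0.0613 and 0.0601 in DPCP libraries, against 0.260, 0.442 and 0.324 in control libraries. The log2 ratio differed by −2.19, with no overlap (2-sided exact permutation p = 0.1, and 0.1 after Benjamini-Hochberg adjustment over 4 ratios, the smallest that 3 against 3 can give). Among the other ligands of the family, Rspo4 averaged 1.74 ± 0.338 CPM in DPCP and 1.68 ± 0.545 CPM in control skin (SD, n = 3 each, not called, adjusted p = 0.916), and Rspo2, at 0.115 to 0.322 CPM in DPCP and 0.238 to 0.366 CPM in control libraries, had too few counts to be tested.

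Counts from whole skin cannot tell fewer cells of a type from less RNA per cell. Markers of mesenchymal and vascular cells, which can make R-spondins, moved in both directions. Of 6 endothelial markers, 3 rose and 1 fell, and their sum was 339 to 402 CPM in DPCP and 219.6 to 258 CPM in control libraries. Of 6 dermal fibroblast markers, 1 rose and 1 fell, with sums of 3870 to 5032 CPM in DPCP and 4464 to 5714 CPM in control libraries. The gene that fell was Dpt, which encodes the matrix protein dermatopontin, at −1.22 ± 0.20 as a log2 fold change (SE). The gene that rose was Pdgfra, at 0.89 ± 0.24, and its exons overlap those of another gene. Its call was lost without control replicate 1 or 3 or DPCP replicate 2. Of 6 dermal papilla markers, 2 rose and 1 fell, with sums of 84.0 to 98.5 CPM in DPCP and 69.3 to 77.4 CPM in control libraries. Without Crabp1, a retinoic acid binding protein gene that rose to 39.9 ± 5.61 CPM in DPCP skin, against 10.1 ± 1.30 CPM in control skin (SD, n = 3 each), the other 5 summed to 40.2 to 56.9 CPM in DPCP and 59.1 to 66.0 CPM in control libraries. Among them Wif1 rose by 0.83 ± 0.19, while Sostdc1, a Wnt and BMP inhibitor gene, fell by 0.54 ± 0.18 (SE) on the log2 scale. All 5 skeletal muscle markers fell, with sums of 2233 to 4462 CPM in DPCP and 8500 to 11069 CPM in control libraries, and none was at 0. The part of these cells in the change of Rspo3 was not tested.

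Among the Lgr receptor genes, Lgr6 showed the largest difference. Lgr6 (ENSMUSG00000042793, chromosome 1, 134983301 to 135105276, minus strand, 20 merged exons) marks cells of the upper follicle in mouse skin. It was at 29.1, 20.3 and 21.7 CPM in DPCP skin, against 58.4, 59.1 and 71.6 CPM in control skin, so that even the highest DPCP value was well below the lowest control value. This was a log2 fold change of −1.41 ± 0.15 (SE, adjusted p = 0.000177 by edgeR), which left 37.6% of the control level.

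Lgr4 (ENSMUSG00000050199, chromosome 2, 109917647 to 110014257, plus strand, 20 merged exons) is the most widely expressed of these receptors in mouse tissues. It was at 38.9, 35.8 and 37.5 CPM in DPCP skin, against 48.4, 52.7 and 51.9 CPM in control skin. Replicates agreed closely, with coefficients of variation of 4.09% in DPCP and 4.51% in control, and the groups did not overlap. Its log2 fold change was −0.45 ± 0.08 (SE, edgeR adjusted p = 0.00248).

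Lgr5 (ENSMUSG00000020140, chromosome 10, 115450311 to 115587780, minus strand, 17 merged exons) marks cycling stem cells of the lower follicle. It was at 12.4, 7.54 and 11.9 CPM in DPCP skin, against 11.8, 15.8 and 12.9 CPM in control skin. DPCP replicate 1 lay above control replicate 1, so the groups overlapped. The log2 fold change was −0.35 with a 95% interval of −0.82 to 0.12 (edgeR adjusted p = 0.197), which includes no change and a decrease larger than that of Lgr4. It was −0.15 without DPCP replicate 2 and −0.21 without control replicate 2, and it was not called in any of the 14 alternatives.

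Per length, the 3 receptor genes together were at 12.1, 9.78 and 10.7 RPKM (CPM divided by the exon length in kilobases) in DPCP libraries, against 17.9, 19.1 and 20.5 RPKM in control libraries. Lgr6 held 35.2%, 30.3% and 29.6% of that sum in DPCP skin, against 47.6%, 45.1% and 50.9% in control skin. Lgr4 held 58.8% ± 3.78 in DPCP and 45.3% ± 2.05 in control skin, and Lgr5 held 9.46% ± 1.73 in DPCP and 6.87% ± 1.04 in control skin (SD, n = 3 each). The ratio of Lgr6 to Lgr5 per length was 3.50, 4.03 and 2.74 in DPCP and 7.43, 5.60 and 8.31 in control libraries. That of Lgr6 to Lgr4 was 0.643, 0.486 and 0.498 in DPCP and 1.04, 0.962 and 1.19 in control libraries. The log2 ratios differed by −1.05 and −0.98, without overlap, each at the smallest reachable 2-sided exact permutation p of 0.1 (0.1 adjusted over 4 ratios). These sums and shares carry no isoform information, since exons of all transcripts were merged, and no strand information, since reads were counted on either strand. They also depend on the merged length of all annotated exons of each gene.

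**Figure D2:**
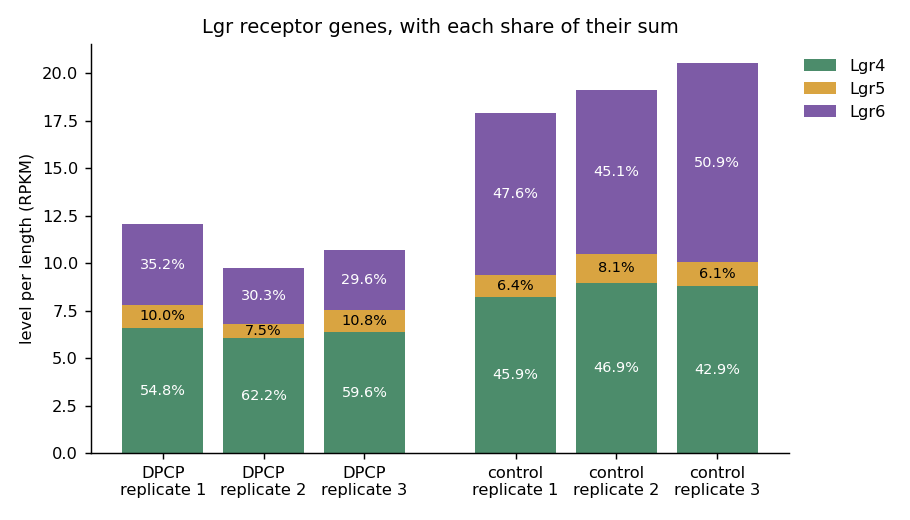
Stacked levels of Lgr4, Lgr5 and Lgr6 per length of exon (RPKM) in each DPCP and control library, with the share of each gene in the sum written in its bar. Lgr6 takes 29.6% to 35.2% of the sum in DPCP and 45.1% to 50.9% in control libraries, where the bars are also taller.

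Several markers of follicle and gland cells, though not all, were lower beside Lgr6. Of 7 markers of the hair follicle bulge, 4 fell and none rose, and their sum was 1914 to 2278 CPM in DPCP and 4081 to 4377 CPM in control libraries. Krt15, a keratin of bulge stem cells, differed most in level (650.2 ± 141 CPM in DPCP and 2223 ± 98.8 CPM in control, SD, n = 3 each). The other 6 summed to 1396 to 1479 CPM in DPCP and 1793 to 2106 CPM in control libraries. Among them Cd34, whose exons overlap those of another gene, fell by 0.70 ± 0.12 (SE) on the log2 scale. Col17a1 made up most of the sum of these 6, at 1039 ± 26.7 CPM in DPCP and 1435 ± 186 CPM in control skin (SD, n = 3 each). The bulge markers Tbx1, Nfatc1 and Foxc1 were not called, with log2 fold changes of 0.19, −0.09 and −0.05. Of 6 sebaceous gland markers, 5 fell and none rose, with sums of 2401 to 3079 CPM in DPCP and 3917 to 5524 CPM in control libraries. Of 6 markers of the epidermis between follicles, 2 rose and 2 fell, with sums of 26096 to 29905 CPM in DPCP and 17747 to 22886 CPM in control libraries. Without Krt14 the other 5 summed to 9608 to 11094 CPM in DPCP and 13254 to 17662 CPM in control libraries, but they moved in both directions. Among them Dsg3 rose to 702 ± 106 CPM in DPCP skin, against 240 ± 19.5 CPM in control skin. Krt10, a keratin of the differentiating epidermis, fell to 1019 ± 286 CPM in DPCP skin, against 5914 ± 1143 CPM in control skin (SD, n = 3 each). Exons of Krt10 overlap those of another gene. No marker of these 3 lists was at 0 in any library. Their part in the changes of Lgr6, Lgr4 and the Wnt targets was not tested.

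Znrf3 (ENSMUSG00000041961, chromosome 11, 5276324 to 5444847, minus strand, 10 merged exons), which clears Frizzled receptors and is itself a Wnt target, was at 16.4, 13.2 and 15.9 CPM in DPCP skin, against 22.2, 21.4 and 24.4 CPM in control skin. The groups did not overlap, and the log2 fold change was −0.58 ± 0.12 (SE, edgeR adjusted p = 0.00407), which left 66.7% of the control level. Its close relative Rnf43 averaged 12.3 ± 1.70 CPM in DPCP and 20.6 ± 3.13 CPM in control skin (SD, n = 3 each), which is −0.75 ± 0.15 as a log2 fold change (SE, adjusted p = 0.00424). The gene of the ligand Rspo3 and those of both ligases that R-spondins inhibit were lower in the same DPCP libraries.

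The feedback targets fell to similar fractions. Axin2 (ENSMUSG00000000142, chromosome 11, 108920349 to 108950783, plus strand, 14 merged exons), a scaffold of the complex that destroys beta-catenin and a common readout of Wnt activity, was at 22.6, 18.2 and 24.8 CPM in DPCP skin, against 46.9, 51.2 and 53.1 CPM in control skin. No DPCP library came near the lowest control library. The log2 fold change was −1.20 ± 0.12 (SE, edgeR adjusted p = 0.000151), which left 43.4% of the control level. An antisense gene, Gm11670, shares 209 of the 5506 exon bases of Axin2, and no library gave it more than 2 counts.

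Nkd1 (ENSMUSG00000031661, chromosome 8, 88521354 to 88594884, plus strand, 12 merged exons), whose product binds Dishevelled and damps Wnt signalling, was at 4.01, 3.17 and 2.83 CPM in DPCP skin, against 6.50, 7.23 and 7.39 CPM in control skin. The groups did not overlap, and the log2 fold change was −1.08 ± 0.18 (SE, edgeR adjusted p = 0.00147), which left 47.5% of the control level.

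The genes closest to Axin2 across the 6 libraries were Cbarp, Plekhn1 and Marveld2. Likeness was the root mean square difference in log2 CPM after centring each gene, over 12421 other tested genes with a mean of at least 5 CPM, and came to 0.056, 0.066 and 0.066. The likeness rests mainly on the shared difference between the groups. Their log2 fold changes were −1.20, −1.14 and −1.26, beside −1.20 for Axin2, and exons of Cbarp and Plekhn1 overlap those of other genes.

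Start-site sequences are shown for Axin2, Nkd1, Lgr6 and Lef1 because these genes bear on whether the members share a binding motif of the Lef1 and Tcf7 factors close to the start of transcription. The sequences are RefSeq windows on GRCm38.p6, the 250 bases before a RefSeq transcript start, and RefSeq gave 11 such windows for 7 of the 10 genes, while Rspo3, Lgr5 and Znrf3 had none there. Windows were searched on both strands for 3 motifs, namely CTTTGAT, then CTTTGAA, then CTTTGTT, and for their shared core CTTTG. Capitals mark this core, or its complement CAAAG where it lies on the other strand, and the lines read 5′ to 3′ on the strand of the gene.
Axin2 (chr11:108920099-108920348, plus strand): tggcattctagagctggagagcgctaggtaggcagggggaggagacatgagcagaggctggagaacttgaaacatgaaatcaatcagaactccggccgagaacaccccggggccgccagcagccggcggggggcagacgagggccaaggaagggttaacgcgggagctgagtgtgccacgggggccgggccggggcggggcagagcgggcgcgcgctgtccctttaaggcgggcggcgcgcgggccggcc
Nkd1 (chr8:88527383-88527632, plus strand): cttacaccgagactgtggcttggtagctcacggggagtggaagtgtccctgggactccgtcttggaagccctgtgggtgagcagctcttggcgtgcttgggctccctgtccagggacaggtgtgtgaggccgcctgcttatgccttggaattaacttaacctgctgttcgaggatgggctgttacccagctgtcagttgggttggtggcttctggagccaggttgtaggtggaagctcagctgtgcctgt
Lgr6 (chr1:135105277-135105526, minus strand): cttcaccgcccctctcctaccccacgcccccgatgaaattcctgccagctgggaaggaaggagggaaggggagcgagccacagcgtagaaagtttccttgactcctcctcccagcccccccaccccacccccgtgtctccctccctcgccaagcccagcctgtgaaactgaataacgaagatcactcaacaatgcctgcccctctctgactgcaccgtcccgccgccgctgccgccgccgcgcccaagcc
Lef1, window 4 (chr3:131156044-131156293, plus strand): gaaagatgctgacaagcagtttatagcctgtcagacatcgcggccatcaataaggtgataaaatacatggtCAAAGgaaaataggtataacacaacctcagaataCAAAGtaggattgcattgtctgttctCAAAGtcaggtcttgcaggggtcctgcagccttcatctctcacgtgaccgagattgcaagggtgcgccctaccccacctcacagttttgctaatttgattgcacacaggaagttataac
None of the 11 windows held any of these 3 motifs of 7 bases, which 12% of all 32851 RefSeq windows held. The related form CTTTGTA was not searched. Window 4 of Lef1 holds it on the other strand, where the shown line reads taCAAAG. The core CTTTG lay in the 4 windows of Lef1, of which windows 1 and 2 overlap, and in none of those of Axin2, Nkd1, Lgr4, Lgr6, Rspo1 and Tcf7, while 48.6% of all windows held it. The shown windows of Axin2 and Lgr6 end at the base before the deposited gene starts, whereas that of Nkd1 and window 4 of Lef1 lie inside the deposited gene span, at RefSeq starts further downstream. Windows of Axin2, Lgr6 and Nkd1 held 24, 16 and 6 CpG dinucleotides, against a median of 6 and an upper quartile of 16 over all windows. The count was not particular to genes that fell, since the window of Rspo1 held 22 and window 1 of Tcf7 held 37. A window without a match says only that these letters are missing from it.

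The transcription factor genes Tcf7 and Lef1 had fold changes of opposite sign. Tcf7 (ENSMUSG00000000782, chromosome 11, 52252371 to 52283331, minus strand, 14 merged exons), which encodes TCF1, was at 13.8, 12.3 and 16.4 CPM in DPCP skin, against 11.4, 10.4 and 10.7 CPM in control skin. The groups did not overlap, though DPCP replicate 2 lay close to control replicate 1. The log2 fold change was 0.38 ± 0.14 (SE, edgeR adjusted p = 0.0472), just inside the threshold. The call was lost without any single library other than DPCP replicate 2, with log2 fold changes of 0.27 without DPCP replicate 3, 0.40 without DPCP replicate 1, and 0.43, 0.37 and 0.37 without control replicates 1, 2 and 3. Over the 14 alternatives the log2 fold change stayed positive and its adjusted p ranged from 0.0312 to 0.142, with 10 alternatives above the threshold.

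Lef1 (ENSMUSG00000027985, chromosome 3, 131110471 to 131224356, plus strand, 14 merged exons) had 25, 30 and 20 counts in DPCP libraries, against 32, 34 and 29 counts in control libraries. Its levels of 0.721, 0.820 and 0.644 CPM in DPCP skin lay below 1.09, 1.13 and 0.865 CPM in control skin without overlap. The log2 fold change was −0.49 with a 95% interval of −1.13 to 0.15 (edgeR adjusted p = 0.184), which includes no change. The antisense gene Gm43352 shares 1208 of the 8788 exon bases of Lef1, which makes its level uncertain. The ratio of Tcf7 to Lef1 per length was 55.9, 43.6 and 73.9 in DPCP and 30.5, 26.8 and 36.1 in control libraries, a difference of 0.87 on the log2 scale (2-sided exact permutation p = 0.1, adjusted 0.1 over 4 ratios).

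Both factors are also known in T cells, whose markers moved in both directions. Of 11 T cell markers, 2 rose, 5 fell and 4 were not called, and their sum was 31.1 to 42.9 CPM in DPCP and 61.8 to 79.6 CPM in control libraries. None was at 0 in any library. Cd3g fell to 5.70 ± 1.45 CPM in DPCP skin, against 20.7 ± 3.13 CPM in control skin (SD, n = 3 each), and Cd247, which shares exon bases with another gene, fell by 1.92 ± 0.20 (SE) on the log2 scale. The markers that rose were Ccr7, a chemokine receptor gene, at 3.81 ± 0.937 CPM in DPCP and 1.14 ± 0.245 CPM in control skin, and Cd5 at 4.21 ± 0.236 CPM in DPCP and 2.28 ± 0.393 CPM in control skin. Trac, the constant region of the T cell receptor alpha chain, had a log2 fold change of 0.17 ± 0.29 (SE) and was not called. The part of T cells in the levels of Tcf7 and Lef1 was not tested.

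**Figure D3:**
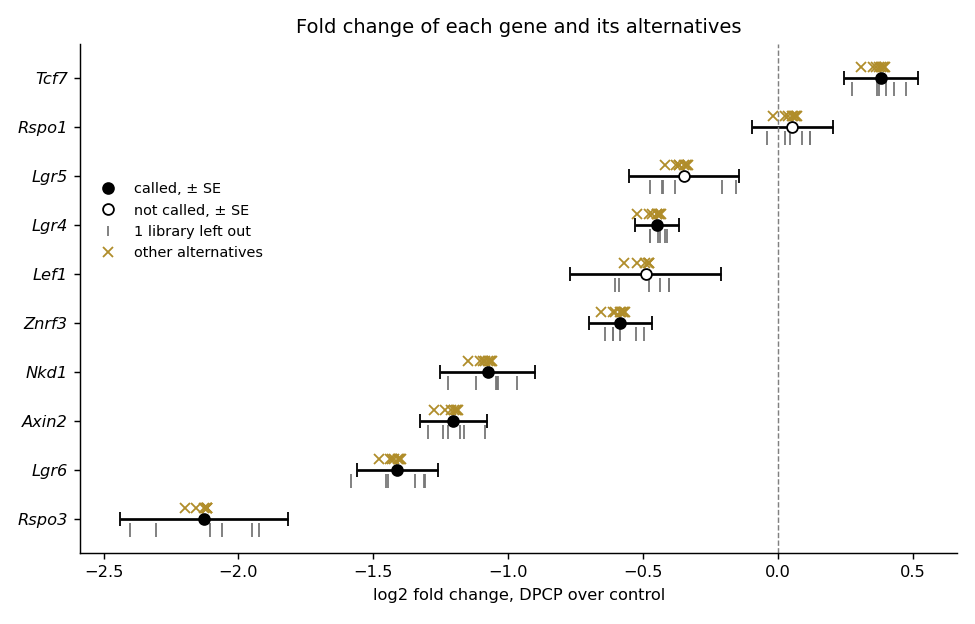
Log2 fold change of each gene, DPCP over control (circles, ± SE, filled where called at an adjusted p under 0.05), with grey ticks for fits that leave out 1 library and crosses for other alternatives. The 6 genes called lower stay below 0 in every fit shown, Rspo1 lies on both sides of 0, and Tcf7 stays above 0.

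Compared per length within a group, the order of levels differed between DPCP and control skin. In DPCP skin Lgr4 led at 6.35 ± 0.260 RPKM, above Tcf7 at 4.69 ± 0.682 RPKM, Axin2 at 3.98 ± 0.615 RPKM, Rspo1 at 3.50 ± 0.428 RPKM and Lgr6 at 3.46 ± 0.688 RPKM, and neighbours from Tcf7 to Lgr6 overlapped. In control skin Lgr6 at 9.20 ± 1.08 RPKM, Axin2 at 9.15 ± 0.582 RPKM and Lgr4 at 8.67 ± 0.391 RPKM overlapped at the top, above Tcf7 at 3.59 ± 0.165 RPKM and Rspo1 at 3.37 ± 0.258 RPKM (SD, n = 3 for each value). Znrf3 stood apart from its neighbours below these in both groups, at 1.92 ± 0.216 RPKM in DPCP and 2.88 ± 0.196 RPKM in control skin. Lgr5 and Nkd1 overlapped each other in both groups, at 1.03 ± 0.261 and 0.732 ± 0.133 RPKM in DPCP and at 1.32 ± 0.203 and 1.54 ± 0.104 RPKM in control skin. Rspo3 overlapped Lgr5 in control (1.15 ± 0.310 RPKM) and lay apart below Nkd1 in DPCP skin (0.263 ± 0.0826 RPKM), and Lef1 was lowest in both, at 0.0829 ± 0.0100 RPKM in DPCP and 0.117 ± 0.0163 RPKM in control skin.

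The other genes of the pathway were divided by role. Counts called in these lists, and in the marker lists above, stand beside 23.3% lower and 22.8% higher over all genes tested. Of 5 other genes tied to R-spondin signalling, 3 fell, 1 was not called and 1 was not tested, with a median log2 fold change of −0.60 over those tested. Beside Rnf43, these were Gpc3, a glypican that carries heparan sulfate on the cell surface, at 66.1 ± 16.5 CPM in DPCP and 163 ± 27.1 CPM in control skin (log2 fold change −1.30 ± 0.19, SE), and Sdc4, a syndecan reported in frog embryos to act with Rspo3, at 193 ± 23.7 CPM in DPCP and 265 ± 24.9 CPM in control skin (−0.46 ± 0.12, SE).

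Of 12 Frizzled and LRP receptor genes, 1 fell, none rose and 11 were not called (median log2 fold change −0.04). The gene that fell was Fzd10, a Frizzled receptor for Wnt ligands, at 30.9 ± 4.37 CPM in DPCP and 55 ± 6.02 CPM in control skin (log2 fold change −0.83 ± 0.13, SE). Of 18 genes of the cytoplasmic relay and the beta-catenin destruction complex, 2 rose, 3 fell and 13 were not called (median −0.01). The casein kinase genes Csnk1a1 and Csnk1d rose by 0.33 ± 0.10 and 0.28 ± 0.09 (SE), while Amer1, a scaffold of the destruction complex, fell by 0.60 ± 0.12, the ubiquitin ligase subunit gene Btrc fell by 0.41 ± 0.12 and the Dishevelled gene Dvl1 fell by 0.32 ± 0.10 on the log2 scale. Apart from that of Amer1, these calls lay close to the threshold and their signs stayed the same in all alternatives. Csnk1a1 was not called without control replicate 1 or 2 or DPCP replicate 2 or 3, and Csnk1d was not called without any library but DPCP replicate 2, with adjusted p of up to 0.0618 and 0.131 in edgeR. Both were also lost with library totals alone, and Csnk1d with upper-quartile factors. Btrc was not called without control replicate 1 or 3 or DPCP replicate 1 or 2, and Dvl1 without control replicate 1 or 3 or DPCP replicate 2 or 3, with adjusted p of up to 0.0859 and 0.0935. Exons of Csnk1d, Btrc and Dvl1 overlap those of other genes. Ctnnb1, which encodes beta-catenin itself, was named outside the rule after its values were seen. It averaged 578 ± 3.74 CPM in DPCP and 508 ± 15.3 CPM in control skin and was not called (log2 fold change 0.19 ± 0.08, SE, edgeR adjusted p = 0.0922).

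Of 13 nuclear partners of beta-catenin, 1 rose, 3 fell and 9 were not called (median log2 fold change −0.14). Pygo1, a coactivator that binds beta-catenin through Bcl9, was at 5.62, 5.06 and 6.02 CPM in DPCP skin, against 17.6, 19.7 and 18.8 CPM in control skin, and its replicates were tight in both groups. Its log2 fold change was −1.75 ± 0.13 (SE, edgeR adjusted p = 2.8e-05), and that of Bcl9 was −0.59 ± 0.09. Ctnnbip1, an inhibitor that keeps beta-catenin from the TCF factors, fell by 0.87 ± 0.12 (SE), and Tle1, a corepressor of TCF factors, rose by 0.62 ± 0.10 on the log2 scale. Both share exon bases with other genes.

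Other feedback and target genes moved in both directions. Of 16, 2 were not tested, and of the other 14, 6 fell, 3 rose and 5 were not called (median −0.05). Tnfrsf19, a TNF receptor family gene also called Troy, was at 77.0, 55.2 and 45.8 CPM in DPCP skin, against 204, 209 and 196 CPM in control skin. The gap between the groups was larger than the spread within either, and the log2 fold change was −1.78 ± 0.17 (SE, edgeR adjusted p = 0.000115). The membrane inhibitor gene Apcdd1 fell by 0.91 ± 0.14 and Nkd2, the relative of Nkd1, fell by 0.92 ± 0.15 (SE) on the log2 scale.

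Notum, named outside the rule after its values were seen, encodes a secreted enzyme that inactivates Wnt ligands. It was at 0.894, 0.355 and 0.451 CPM in DPCP skin, against 2.01, 2.23 and 3.13 CPM in control skin. The groups did not overlap, at −2.11 ± 0.37 as a log2 fold change (SE, edgeR adjusted p = 0.00213), and exons of Notum overlap those of another gene. The genes that rose were Cd44 (0.88 ± 0.11, SE), a hyaluronan receptor, Ccnd1 (0.87 ± 0.10), which encodes cyclin D1 of the cell cycle, and the mesenchymal factor gene Twist2 (1.14 ± 0.26). Exons of Ccnd1 and Twist2 overlap those of other genes. The part of Wnt signalling in the changes of these targets, higher or lower, was not tested.

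**Figure D4:**
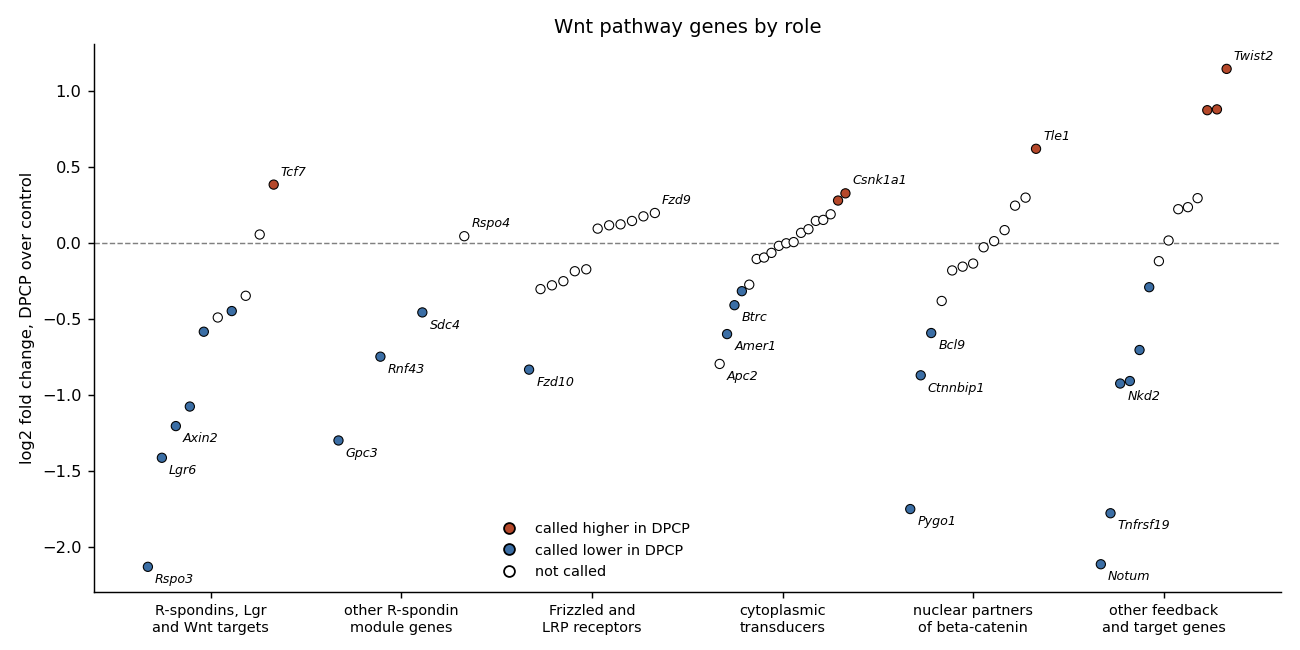
Log2 fold change, DPCP over control, of each tested gene by role in the Wnt pathway (red called higher in DPCP, blue called lower, white not called), sorted within each role. Of the Frizzled and LRP receptor genes, none but Fzd10 was called. The other genes tied to R-spondin signalling have a median of −0.60, but the R-spondin gene among them, Rspo4, is at 0.04 and was not called. The other feedback and target genes spread from −2.11 for Notum to 1.14 for Twist2.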

How the data were processed

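Counts per gene were deposited by the authors for 3 DPCP and 3 control libraries of whole dorsal mouse skin, from polyadenylated RNA in a stranded paired-end protocol per the labels' protocols. Per the file headers, the deposited counts were made with featureCounts 1.6.2 and the Ensembl GRCm38 annotation, release 102, with no option set for strand or read pairs. Mates were therefore counted singly on either strand, so counts exceed the number of fragments, and a read over exons of 2 genes was not assigned, which touches Rspo3, Axin2 and Lef1. Per the submitters' processing notes, Trimmomatic 0.36, HISAT2 2.2.1, StringTie 2.2.1 and DESeq2 1.34.0 were used.

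Symbols were taken from GENCODE M21 for 55141 of 55487 genes. The fit was edgeR 4.0.16 (R 4.3.3, quasi-likelihood F-test, TMM factors of 0.942 to 1.04, filterByExpr defaults, adjusted over 18259 genes). It was also run on simulated counts, but with far fewer changed genes than were called here, so that run does not vouch for these calls. The SE is the unshrunken log2 fold change over the square root of F. CPM used TMM-scaled totals, and a count of 0 allowed up to 0.0772 to 0.106 CPM (3 counts of the library total, counting error only). RPKM divides CPM by the merged exon length in kilobases, as deposited by the authors. All libraries were distinct (lowest chi-square per gene between any pair, 13.9). Replicate numbers were not treated as pairs. Alternatives were other scalings, DESeq2 1.42.0, other filters, a replicate block, leaving out each library, and only genes that share no exon base.

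Members, lists and tests were chosen with earlier results of these data known. Named genes are the 10 members, up to 3 called genes in each direction from each pathway list, at most 2 per marker list, and the 3 genes most like Axin2. Rspo2, Rspo4, Ctnnb1 and Notum were named outside this rule, after their values were seen. So were the markers Trac, Cd5, Ccr7, Sostdc1, Krt10, Col17a1, Tbx1, Nfatc1 and Foxc1. Marker lists not used beside a result gave 2 of 5 melanocyte genes higher, 2 of 5 Schwann cell genes lower, and 1 of 5 adipocyte genes in each direction.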

Additional observations from a re-analysis of the deposited data

How the results depend on the processing

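The 6 members called lower (Rspo3, Lgr4, Lgr6, Znrf3, Axin2 and Nkd1) stayed lower and called in every alternative in which they were tested. Axin2 and Rspo3 drop out, with Lef1, when only genes that share no exon base are kept, and the count is then 4. The count of members called higher, 1 in the main result (Tcf7), was 0 with upper-quartile factors, with library totals alone, with no count filter, with the replicate block and among genes that share no exon base, and 0 to 1 when 1 library was left out. The call of Tcf7 lay near the threshold throughout, and the cause was not tested. Rspo1, never called, turned to −0.018 with library totals alone and ranged from −0.041 (without DPCP replicate 3) to 0.12 (without DPCP replicate 2) when 1 library was left out. Counts over all genes were 3492 to 4361 higher and 3430 to 4858 lower, except among the genes that share no exon base, where fewer genes were tested and 2708 were higher. The median log2 fold change of all genes was −0.088 at its lowest, with library totals alone.

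Same-numbered libraries of the 2 groups deviated together with correlations of 0.061, 0.045 and 0.18, so the numbers were not taken as pairs. With the replicate block 4260 genes were called higher and 4241 lower, against 4163 and 4254 without it, 6 members were called lower, and Tcf7 had an adjusted p of 0.0501. Of 140 counts over the pathway lists in the alternatives, 19 moved by more than 1.5 times. The 4 ratios between members kept their direction with a prior count of 0.5 and without each library. Counts were lowest for Lef1 and Rspo3, at 20 to 34 and 22 to 134 counts per library.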
